A study of Mus musculus with 2 samples.

Results

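The interleukin 6 (IL-6) cytokine family was followed through 10 genes of the mouse kidney. These were the ligands Il6, Il11, Lif and Osm, the receptor chains Il6st, Osmr, Lifr and Il6ra, the transcription factor Stat3 and the feedback inhibitor Socs3. The genes were chosen by symbol and not by a threshold on their values, but with earlier results of these data known. Each matched 1 of the 32285 genes listed in the counts. Single cell RNA sequencing (scRNAseq) had been performed on 1 control and 1 ischemic kidney of male wildtype C57BL/6J mice aged 19 weeks. The left kidney had undergone 27 min of ischemia and 24 h of reperfusion, and the control was the uninjured kidney of the opposite side, not a kidney of a sham-operated mouse. With 1 library per condition, ischemia and library cannot be told apart and no test between conditions was run. Every interval given is a 95% interval for counting error only and does not cover the spread between mice.

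The ligands followed here all signal through gp130, the shared chain encoded by Il6st. Il6ra pairs IL-6 with gp130, Lifr forms the receptor of leukemia inhibitory factor (LIF) with gp130, and Osmr forms that of oncostatin M. Ligand binding activates Janus kinases bound to gp130, these phosphorylate STAT3, and STAT3 induces Socs3, whose protein binds gp130 and the kinases and shuts the signal off.

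The filters kept 12586 control and 13116 ischemic cells with 124679362 and 128733541 unique molecular identifiers (UMIs, each a counted RNA molecule). The median depth was 3839 UMIs per control cell and 2138 per ischemic cell. The libraries shared 88 cell barcodes, 58 of them among kept cells. Clustering gave 19 clusters, and 16 of them were named from marker genes as 12 cell types. These were proximal tubule (PT), thin limb, thick ascending limb (TAL), distal convoluted and connecting tubule (DCT-CNT), collecting duct principal cells (CD-PC), intercalated cells (IC), podocytes, endothelial cells (EC), pericytes and vascular smooth muscle cells (pericyte-VSMC), macrophages, neutrophils (PMN), and T and natural killer cells (T-NK). Each name is written with "-like", since it rests on marker RNA alone. PT-like cells carried all 12 PT markers in both libraries, but so did most other types, so detection does not set them apart. The summed level of these markers was 11033 CPM in control and 5558 CPM in ischemic PT-like cells. The highest in another named type was 3346 CPM in control PMN-like and 1091 CPM in ischemic T-NK-like cells. The summed level of 5 markers of injured PT in PT-like cells was 15.2 CPM in the control library against 467 CPM after ischemia. Havcr1, 1 of the 5, was also higher in other ischemic types, such as EC-like cells (1.81 and 104 CPM). CPM are the UMIs of a gene per 1000000 UMIs of the same cells. The CD-PC-like cluster was also led by Aqp6, a gene of IC. It held RNA of the urothelium markers Krt5 and Upk1b as well. For Krt5 it had 77 of 86 control and 488 of 519 ischemic UMIs, 8.14 and 44.2 CPM. For Upk1b it had 23 of 26 control and 13 of 15 ischemic UMIs. Which of the cells of this mixed cluster held Lif, Il11 or Osmr was not tested. The 3 unnamed clusters were 1 of low depth (median 843 UMIs), 1 led by TAL genes and 1 led by immunoglobulin genes. That of low depth was the largest of all clusters, with 38.1% of control cells (4793) and 46.1% of ischemic cells (6052). It held 5.28% of control and 5.44% of ischemic UMIs and had hemoglobin genes among its leading genes. Its PT markers summed to 7540 (control) and 4005 (ischemic) CPM, less than PT-like cells but more than any other named type. Havcr1 reached 11.4 (control) and 434 (ischemic) CPM there, against 6.99 and 420 for PT-like cells. How much of the RNA of this cluster came from PT cells was not tested.

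Promoter sequence was taken for the members from RefSeq (GRCm38.p6, 250 bases before to 50 bases after each start), which held 11 windows for 9 of the 10 members and none for Osm. The windows of 3 members are shown: Socs3 as the feedback target of STAT3, Lif as the member with the highest ratio between the libraries, and Osmr as the receptor with the highest ratio. Capitals mark a STAT motif in Socs3 and an AP-1 motif in Lif, read 5′ to 3′ along the strand of the gene. Socs3 lies at chr11:117966079-117970047 on the minus strand (GRCm38) and its window at chr11:117969317-117969616. Lif lies at chr11:4257557-4272514 on the plus strand and its window at chr11:4257318-4257617. Osmr lies at chr15:6813577-6874969 on the minus strand and its window at chr15:6874264-6874563. All 3 are annotated as protein-coding genes. The gene bounds are those of GENCODE, while the windows follow the RefSeq starts. For Socs3 and Osmr the GENCODE gene begins further upstream than the RefSeq start, so the whole window lies inside the gene bounds given.
Socs3: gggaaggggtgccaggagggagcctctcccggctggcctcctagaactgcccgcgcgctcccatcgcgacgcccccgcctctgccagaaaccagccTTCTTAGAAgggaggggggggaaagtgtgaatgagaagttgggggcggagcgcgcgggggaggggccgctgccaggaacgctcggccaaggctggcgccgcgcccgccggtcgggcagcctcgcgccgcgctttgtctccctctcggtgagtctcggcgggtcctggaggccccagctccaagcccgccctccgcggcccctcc
Lif: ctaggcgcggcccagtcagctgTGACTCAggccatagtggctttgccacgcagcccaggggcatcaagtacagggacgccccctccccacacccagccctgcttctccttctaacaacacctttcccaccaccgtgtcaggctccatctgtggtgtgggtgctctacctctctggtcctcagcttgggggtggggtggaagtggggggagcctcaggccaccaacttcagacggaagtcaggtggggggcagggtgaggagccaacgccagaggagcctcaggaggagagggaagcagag
Osmr: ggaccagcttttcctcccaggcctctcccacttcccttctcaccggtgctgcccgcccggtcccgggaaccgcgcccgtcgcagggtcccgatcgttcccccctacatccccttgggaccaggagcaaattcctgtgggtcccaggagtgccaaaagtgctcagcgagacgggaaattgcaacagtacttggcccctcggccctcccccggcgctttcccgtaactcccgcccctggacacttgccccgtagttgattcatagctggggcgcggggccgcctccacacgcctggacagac

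The STAT motif TTCNNNGAA, which reads the same on both strands, was found in 1 of the members' windows, as TTCTTAGAA in Socs3 at positions -154 to -146 from the start. Of all 32851 RefSeq windows of this length, 8.30% held it. The AP-1 motif was searched as TGACTCA and, for the other strand, TGAGTCA, and it does not overlap the STAT motif. It was found in Lif at -228 to -222, in Il6 at -249 to -243 and in 1 of the 2 Il11 windows at -98 to -92. Of all windows, 5.20% held it. The Osmr window held neither motif, which says only that these letters are not in those 300 bases.

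Over all kept cells, 5 of the 10 members were at least 2-fold higher in the ischemic library, against 8.75% of the 17061 genes with at least 50 UMIs. They were the 4 ligands and Osmr. None of the 10 was at least 2-fold lower, against 4.13% of genes. Since the members were chosen with earlier results of these data known, these counts are a description only. In sums over all cells, a difference in the number of cells of a type and one in RNA per cell cannot be told apart, so values by cell type follow. The median log2 ratio of all genes was 0.13, and scaling to the median ratio put Osmr at 2.79, Socs3 at 1.82, Stat3 at 1.32, Il6st at 1.09 and Lifr at 0.905. With cells of at most 25% mitochondrial UMIs the ratio was 9.85 for Lif in place of 19.8, 3.76 for Il6 in place of 5.68 and 1.90 for Osmr in place of 3.05, the last under 2-fold.

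**Figure D1:**
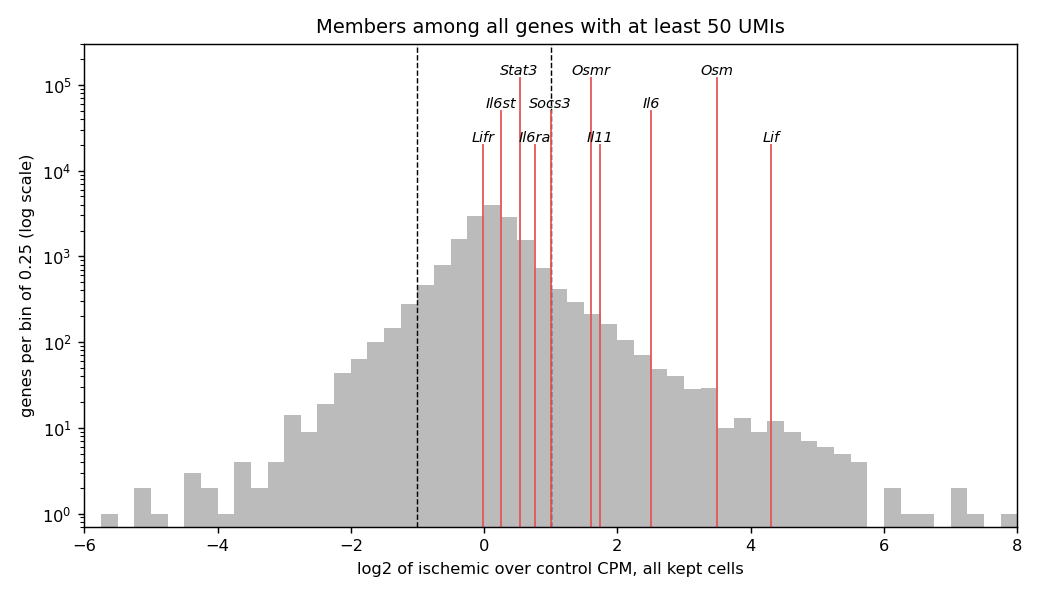
Log2 ratio of ischemic to control CPM over all kept cells (x axis) against the number of genes per bin on a log scale (bars, genes with at least 50 UMIs, 1 library per condition), with the 10 members marked and dashed lines at 2-fold. Lif (log2 ratio 4.31), Osm (3.50), Il6 (2.51), Il11 (1.74) and Osmr (1.61) lie beyond the right dashed line, and Lifr (-0.01) lies near 0.

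Lif encodes the cytokine LIF. It had 46 control and 941 ischemic UMIs, 0.369 and 7.31 CPM, a ratio of 19.8 (14.7 to 27.2). Most of the ischemic RNA was in tubular cells of the distal nephron, with 50.8% of the UMIs in TAL-like, 23.7% in DCT-CNT-like and 11.5% in CD-PC-like cells. With cells typed by their marker UMIs, DCT-CNT-like cells held 3.08% of it. TAL-like cells had 6 control and 478 ischemic UMIs, 0.581 and 37.99 CPM, a ratio of 65.4 (29.8 to 179). In DCT-CNT-like cells there were 9 control and 223 ischemic UMIs, 0.997 and 28.99 CPM, a ratio of 29.1 (15.1 to 64.5). In CD-PC-like cells there were 10 control and 108 ischemic UMIs, 1.06 and 9.79 CPM, a ratio of 9.26 (4.85 to 19.9). In each of these 3 types the intervals of the libraries lay apart. Over the alternatives (other filters, clustering, typing and scaling) the ratio ran from 19.9 to 123 in TAL-like, 14.2 to 29.3 in DCT-CNT-like and 6.32 to 43.1 in CD-PC-like cells. Within the ischemic library TAL (34.7 to 41.5 CPM) and DCT-CNT (25.3 to 33.05) had intervals apart from each other and from every other named type. Among the sub-clusters described below, fibroblast-like cells overlapped both, at 27.5 CPM (13.2 to 50.65) from 10 UMIs. With cells of at most 25% mitochondrial UMIs, the highest level was in DCT-CNT-like cells and not in TAL-like cells. CD-PC (8.03 to 11.8) overlapped the wide intervals of pericyte-VSMC, PMN, podocyte and T-NK, which rested on 1 to 12 UMIs.

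In the control library Lif rested on few cells. Its 9 UMIs in DCT-CNT-like cells were in 1 cell, its 10 in CD-PC-like cells were in 3 cells and its 6 in TAL-like cells were in 4 cells. In the ischemic library a Lif UMI was found in 105 of 497 TAL-like cells (21.1%, 17.6 to 24.98), 45 of 353 DCT-CNT-like cells (12.8%, 9.45 to 16.7) and 38 of 405 CD-PC-like cells (9.38%, 6.72 to 12.7). Macrophage-like cells served as background for this gene, and 9 of 585 of them (1.54%, 0.706 to 2.90) held a UMI. Their median depth was 8549 UMIs, against 24067 in TAL-like cells. With each cell thinned to 1000 UMIs, 3.06% of 491 TAL-like cells, 3.43% of 350 DCT-CNT-like cells and 0 of 572 macrophage-like cells (which allows a share of up to 0.524%) were positive. The 5 cells with the most Lif held 139 of the 478 UMIs of ischemic TAL-like cells and 91 of the 223 of DCT-CNT-like cells.

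PT-like cells held little Lif. They had 5 control and 19 ischemic UMIs, 0.0704 and 0.284 CPM, a ratio of 4.04 (1.46 to 13.8) that ran from 1.78 to 34.3 over the alternatives, and made up 2.02% of the ischemic Lif UMIs while holding 51.9% of all ischemic UMIs. Macrophage-like cells had 3 control and 18 ischemic UMIs, a ratio of 2.002 (0.585 to 10.6) whose interval spans 1. The unnamed cluster led by TAL genes had 7 control and 37 ischemic UMIs, a ratio of 7.44 (3.27 to 19.8).

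Osm encodes oncostatin M. It had 50 control and 583 ischemic UMIs, 0.401 and 4.53 CPM, a ratio of 11.3 (8.45 to 15.4), and nearly all of it was in myeloid cells. Macrophage-like cells had 23 control and 440 ischemic UMIs, 12.8 CPM (8.13 to 19.2) and 81.9 CPM (74.4 to 89.9), a ratio of 6.38 (4.20 to 10.2) (5.78 to 10.8 over the alternatives). PMN-like cells had 23 UMIs in 19 control cells and 121 in 179 ischemic cells, 189 CPM (119.9 to 284) and 144 CPM (119 to 172). The ratio in PMN-like cells was 0.760 (0.484 to 1.24) and the intervals overlapped, and over the alternatives it lay on both sides of 1, from 0.549 to 1.91. PMN-like cells had the highest level in both libraries and macrophage-like cells the next, with intervals apart, and no other named type had more than 5 Osm UMIs in a library. Both types had more cells in the ischemic library, 585 against 289 for macrophage-like cells, and the share of Osm UMIs was 75.5% in macrophage-like and 20.8% in PMN-like cells there, against 46.00% in each in the control.

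PMN RNA was also seen among the macrophage-like cells. The summed level of 8 PMN markers in them was 17.8 CPM in the control (5 of 8 detected) and 399 CPM in the ischemic library (7 of 8), against 96852 CPM in ischemic PMN-like cells. Its part in the Osm level of macrophage-like cells was not tested. An Osm UMI was found in 155 of 585 ischemic macrophage-like cells (26.5%, 22.96 to 30.3) and in 16 of 289 control ones (5.54%, 3.20 to 8.84). In TAL-like cells, the background for Osm, the shares were 2 of 497 (0.402%) and 0 of 503, which allows a share of up to 0.596%. The median depth of macrophage-like cells was 5551 UMIs in the control and 8549 in the ischemic library, and thinned to 1000 UMIs their shares were 0.353% and 6.29%.

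Macrophage-like cells were clustered again to see which of them held Osm. Resident macrophage-like cells, 175 in the control and 162 in the ischemic library, had 15 control and 67 ischemic UMIs, 15.2 and 40.04 CPM, a ratio of 2.64 (1.49 to 4.98). Monocyte-like sub-cluster 1, led by Chil3, Vcan and Arg1, held 4 control and 160 ischemic cells, with 1 control and 292 ischemic UMIs and 181 CPM (161 to 203) in the ischemic library. Monocyte-like sub-cluster 3, led by Chil3, Hp and Ace, held 15 control and 111 ischemic cells, with 4 control and 64 ischemic UMIs and 67.6 CPM (52.04 to 86.3) in the ischemic library. Dendritic cell-like cells had 2 control and 4 ischemic UMIs, 5.84 and 7.11 CPM. In the ischemic library these 4 named sub-clusters had intervals apart from each other, in the order monocyte-like 1, monocyte-like 3, resident macrophage-like (31.03 to 50.9) and dendritic cell-like (1.94 to 18.2). The order in the control was not resolved, since all 4 intervals overlapped.

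Il6 encodes IL-6 itself. It had 45 control and 264 ischemic UMIs, 0.361 and 2.05 CPM, a ratio of 5.68 (4.13 to 7.98). EC-like cells held most of it in both libraries. EC-like cells had 26 control and 151 ischemic UMIs, 5.22 CPM (3.41 to 7.65) and 22.8 CPM (19.3 to 26.7), a ratio of 4.36 (2.86 to 6.88) (2.93 to 10.1 over the alternatives), and held 57.8% of the control and 57.2% of the ischemic UMIs. The cluster named pericyte-VSMC-like had 18 control and 72 ischemic UMIs, 9.59 CPM (5.68 to 15.2) and 29.6 CPM (23.1 to 37.3), a ratio of 3.08 (1.82 to 5.50). When this cluster was clustered again, 11 of its 18 control UMIs were in EC-like sub-cluster 5, 6 in unnamed sub-cluster 3 and 1 in fibroblast-like cells. The cells of the sub-clusters that kept the pericyte-VSMC name had 0 control and 37 ischemic UMIs, at least 7.05-fold higher against a limit of 3 control UMIs. The control level of the whole cluster thus came from other cells. Its ratio was 28.1 with cells of at most 25% mitochondrial UMIs, 34.9 with at least 1000 UMIs per cell and 34.3 at resolution 0.6. No interval was computed for these alternatives. Macrophage-like cells had 0 control and 27 ischemic UMIs, at least 3.003-fold higher against a limit of 3 control UMIs. In the ischemic library the intervals of EC-like cells and of those that kept the pericyte-VSMC name (22.02 to 43.1 CPM) overlapped, so their order was not resolved. Fibroblast-like cells were at 55.1 CPM (33.65 to 85.1) there, above EC-like cells as a whole and overlapping those that kept the pericyte-VSMC name. Ischemic macrophage-like cells as a whole, at 5.02 CPM (3.31 to 7.31), lay below all of these. Their monocyte-like sub-cluster 3 was at 21.1 CPM (12.9 to 32.6) and overlapped EC-like cells.

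Few cells carried Il6. The share of EC-like cells with a UMI was 5.06% (3.81 to 6.56) in the ischemic and 1.11% (0.532 to 2.02) in the control library, against 0.402% of ischemic TAL-like cells as background, which were deeper (24067 against 4244 UMIs). Thinned, the EC-like shares were 1.73% and 0.228%. The 5 control EC-like cells with the most Il6 held 20 of its 26 UMIs. With the 5 cells of each library that had the most Il6 left out, the ratio was 10.1 in EC-like and 9.04 in pericyte-VSMC-like cells. In EC-like cells this took away 20 of the 26 control UMIs, so that ratio rests on few control UMIs. So does that of the pericyte-VSMC-like cluster. Its control Il6 was held by 36.4% of 11 cells of sub-cluster 5, 3.85% of 52 of sub-cluster 3 and 2.86% of 35 fibroblast-like cells. Of the 37 ischemic UMIs in cells that kept the pericyte-VSMC name, 32 were in sub-cluster 1, in 7.14% of its 70 ischemic cells. The other 5 were in 6.25% of the 64 ischemic cells of sub-cluster 0. When EC-like cells were clustered again, sub-cluster 2, led by Hpgd and Slc14a1, had 21 control and 85 ischemic UMIs, 18.97 and 54.2 CPM, a ratio of 2.86 (1.76 to 4.86). Sub-cluster 0, the largest with 429 control and 508 ischemic cells, had 0 control and 27 ischemic UMIs. Sub-cluster 3, led by Ccl21a, Mmrn1 and Reln, genes of lymphatic endothelium, had 2 control and 24 ischemic UMIs, a ratio of 8.11 (2.01 to 70.8). Of the 27 ischemic UMIs in macrophage-like cells, 20 were in monocyte-like sub-cluster 3. That sub-cluster held 15 control and 111 ischemic cells and 0 control UMIs, and the lower limit of its ratio was 0.485, under 1.

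Il11 encodes IL-11, which signals through its own receptor chain and gp130. It had 48 control and 166 ischemic UMIs, 0.385 and 1.29 CPM, a ratio of 3.35 (2.42 to 4.72). The pericyte-VSMC-like cluster had 3 control and 47 ischemic UMIs, 1.60 CPM (0.330 to 4.67) and 19.3 CPM (14.2 to 25.7), a ratio of 12.1 (3.89 to 60.7) (9.78 to 26.9 over the alternatives). CD-PC-like cells had 4 control and 35 ischemic UMIs, 0.423 and 3.17 CPM, a ratio of 7.50 (2.68 to 29.1) (6.04 to 25.03). In both types the intervals of the libraries lay apart. PT-like cells had 14 control and 34 ischemic UMIs, 0.197 and 0.509 CPM, a ratio of 2.58 (1.35 to 5.20), but the share of ischemic PT-like cells with a UMI (1.19%, 0.807 to 1.68) lay within the interval of the macrophage-like background (0.855%, 0.278 to 1.98). Podocyte-like cells had 7 control and 2 ischemic UMIs, 7.38 and 6.01 CPM, with overlapping intervals.

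The pericyte-VSMC-like cluster was mixed, and its sub-clusters held different ligands. Of its 47 ischemic Il11 UMIs, 46 were in fibroblast-like sub-cluster 4, led by Dcn, Cxcl14 and C7. That sub-cluster had 1 Il11 UMI in 35 control cells and 127 CPM (92.8 to 169) in 44 ischemic cells, a ratio of 26.6 (4.53 to 1071). The 5 cells with the most Il11 held 41 of the UMIs. The 104 control and 134 ischemic cells of the sub-clusters that kept the pericyte-VSMC name had 0 control and 0 ischemic UMIs. For Il6 the fibroblast-like cells had 1 control and 20 ischemic UMIs, 4.77 and 55.1 CPM, a ratio of 11.55 (1.85 to 479). For Lif the fibroblast-like cells had 0 control and 10 ischemic UMIs and the cells that kept the pericyte-VSMC name 0 control and 1 ischemic UMIs. The ischemic fibroblast-like level of Lif was 27.5 CPM (13.2 to 50.65), held by 4.55% of 44 cells.

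**Figure D2:**
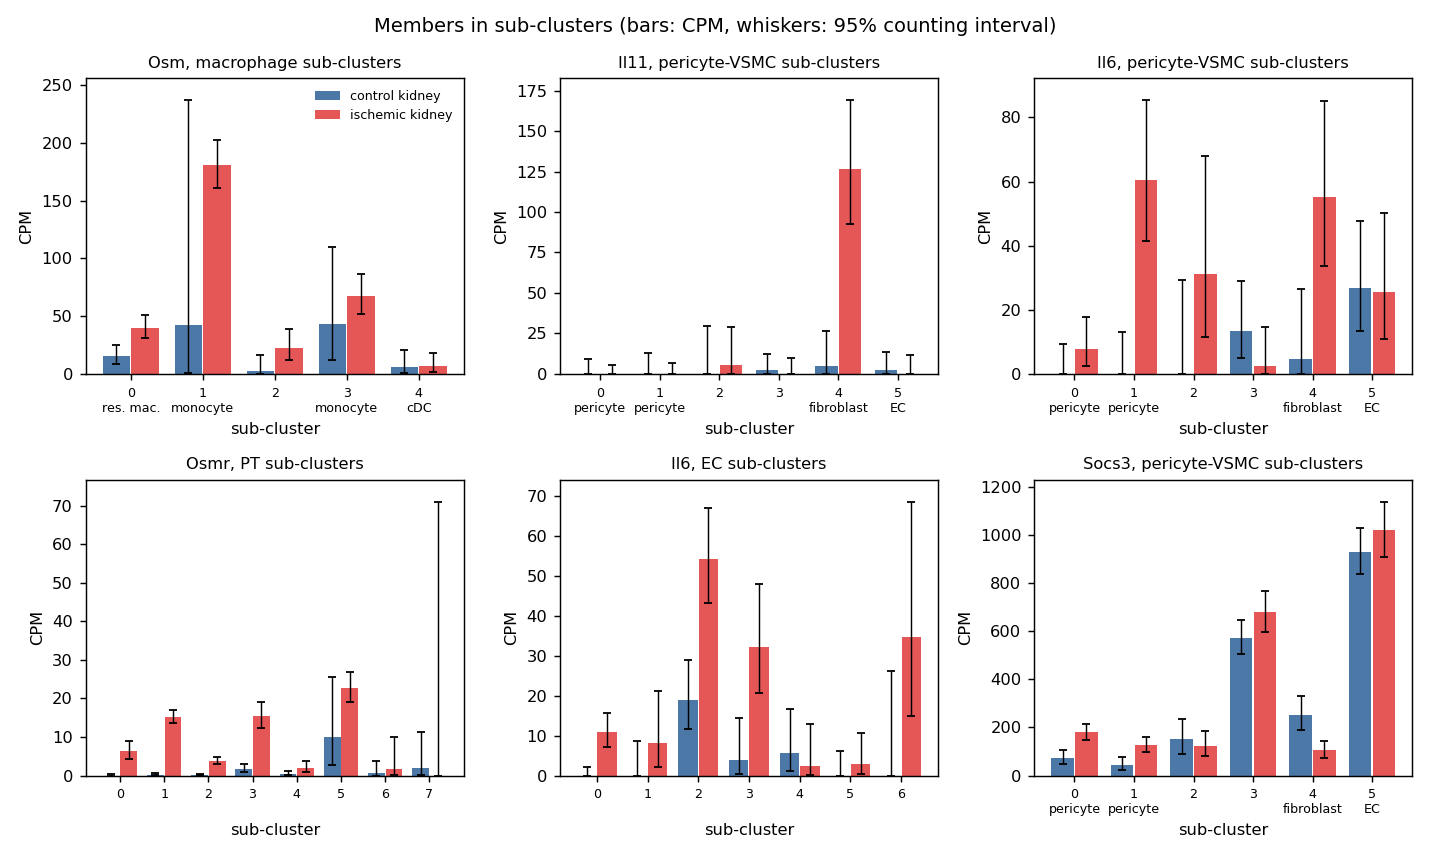
CPM of a member (bars) with its 95% counting interval (whiskers) in sub-clusters of macrophage-like, pericyte-VSMC-like, PT-like and EC-like cells of the control and ischemic kidney (1 library each), each panel on its own scale. Osm reaches 181 CPM in ischemic monocyte-like sub-cluster 1, Il11 127 CPM in ischemic fibroblast-like sub-cluster 4 and Osmr 22.8 CPM in ischemic PT-like sub-cluster 5.

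The members past 2-fold in a cell type were set against the share of all genes past 2-fold there. In TAL-like cells 2 of 6 tested members were higher (Lif and Osmr), against 7.89% of genes. In DCT-CNT-like cells 2 of 6 were (Lif and Osmr), against 6.38%, and in CD-PC-like cells 2 of 6 (Lif and Osmr), against 5.82%. In EC-like cells 1 of 6 was (Il6), against 1.91%, and in the whole pericyte-VSMC-like cluster 2 of 8 were (Il6 and Il11), against 2.15%. In PT-like cells 3 of 6 were higher (Osmr, Il6ra and Socs3), against 6.94%, but Il6ra rested on 17 and 52 UMIs, and the share of all PT-like cells that held one was not above its background. In macrophage-like cells 1 of 6 was higher (Osm), against 5.66%, and 1 of 6 lower (Lifr), against 4.83%. In thin limb-like, PMN-like, podocyte-like, IC-like and T-NK-like cells none of the 1 to 5 members tested was past 2-fold. In that order, 3.83%, 25.75%, 0.829%, 5.73% and 2.59% of genes were at least 2-fold higher there. The shares at least 2-fold lower were 6.595%, 2.63%, 2.39%, 3.95% and 2.13%. In the unnamed cluster of low depth 2 of 5 were higher (Osmr and Socs3), against 7.125% of genes. In the unnamed cluster led by TAL genes 1 of 4 was (Socs3), against 6.64%. In that led by immunoglobulin genes 0 of 1 was past 2-fold, against 11.8% of genes higher and 2.04% lower. A member counted as tested in a type with at least 50 UMIs over both libraries, so a member near 0 in the control entered only where the ischemic library held its RNA.

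**Figure D3:**
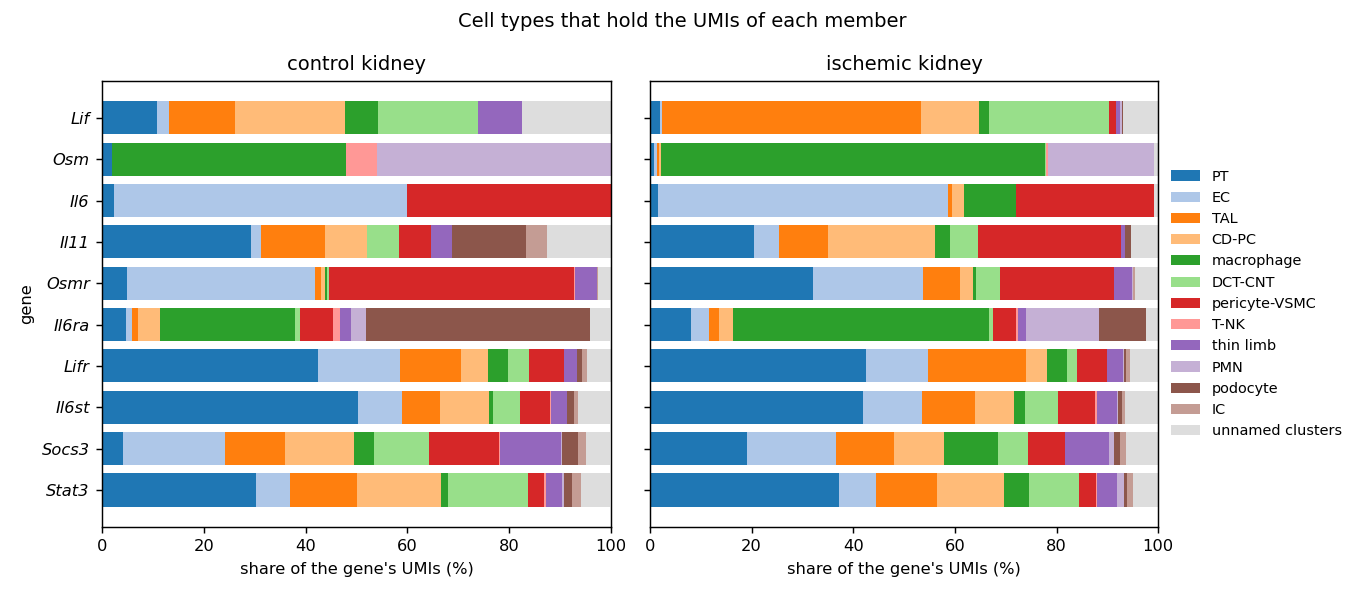
Share of the UMIs of each member (percent) held by each cell type in the control kidney (left) and the ischemic kidney (right), 1 library each. TAL-like cells held 13.04% of control and 50.8% of ischemic Lif UMIs, macrophage-like cells 46.00% and 75.5% of Osm, and PT-like cells 4.93% and 32.01% of Osmr.

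Osmr encodes the chain that makes gp130 a receptor of oncostatin M. It had 689 control and 2171 ischemic UMIs, 5.53 and 16.9 CPM, a ratio of 3.05 (2.80 to 3.33). In the control most of its RNA was in the pericyte-VSMC-like cluster (332 UMIs, 177 CPM) and EC-like cells (254 UMIs, 51.02 CPM), which held 48.2% and 36.9% of it. Of the 332 UMIs, 135 were in unnamed sub-cluster 3, 124 in EC-like sub-cluster 5, 26 in fibroblast-like cells and 40 in the cells that kept the pericyte-VSMC name, which were at 59.2 CPM (42.3 to 80.6) and overlapped EC-like cells (44.9 to 57.7). In the ischemic library the whole cluster and EC-like cells were at 199 and 70.8 CPM, with ratios of 1.12 (0.974 to 1.29) and 1.39 (1.19 to 1.62). Tubular cells differed far more between the libraries. PT-like cells had 34 control and 695 ischemic UMIs, 0.479 CPM (0.332 to 0.669) and 10.4 CPM (9.64 to 11.2), a ratio of 21.7 (15.4 to 31.6). In TAL-like cells there were 8 control and 159 ischemic UMIs, 0.775 and 12.6 CPM, a ratio of 16.3 (8.08 to 38.4). DCT-CNT-like cells had 4 control and 103 ischemic UMIs, 0.443 and 13.4 CPM, a ratio of 30.2 (11.5 to 113). In CD-PC-like cells there were 6 control and 54 ischemic UMIs, 0.634 and 4.90 CPM, a ratio of 7.72 (3.33 to 21.96). All 4 tubular types had intervals apart between the libraries. Over the alternatives the ratio ran from 13.9 to 46.1 in PT-like, 11.5 to 36.1 in TAL-like, 5.68 to 53.9 in DCT-CNT-like and 4.97 to 16.3 in CD-PC-like cells. Thin limb-like cells already had 14.8 CPM in the control and were at 28.4 CPM in the ischemic library, a ratio of 1.93 (1.25 to 3.06).

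By level, the ischemic library began with the whole pericyte-VSMC-like cluster (181 to 217 CPM), EC (64.6 to 77.5) and thin limb (22.6 to 35.4), with intervals apart from each other and from the rest. The cells that kept the pericyte-VSMC name were lower, at 92.2 CPM (75.7 to 111), and overlapped EC, while unnamed sub-cluster 3 was at 398 CPM and fibroblast-like cells at 333 CPM. DCT-CNT (10.9 to 16.2), TAL (10.8 to 14.8) and PT (9.64 to 11.2) followed and overlapped, and CD-PC (3.68 to 6.39) lay below these 3. An Osmr UMI was found in 371 of 2615 ischemic PT-like cells (14.2%, 12.9 to 15.6) and 20 of 3696 control ones (0.541%, 0.331 to 0.835). The share was 21.7% (18.2 to 25.6) in ischemic TAL-like cells and 1.59% in control ones. In macrophage-like cells, the background for Osmr, it was 1.37% and 0.692%, at median depths of 8549 and 5551 UMIs, against 20313 and 15284 in PT-like cells. Thinned to 1000 UMIs, 1.16% of ischemic and 0.0554% of control PT-like cells were positive, and 0 of 572 ischemic macrophage-like cells (which allows a share of up to 0.524%).

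Within PT-like cells Osmr was not evenly held. Sub-cluster 1, led by Ccl20, S100a6, Hspb1 and the tubular injury gene Havcr1, had 6 UMIs in 715 control cells and 344 in 537 ischemic cells, 0.277 and 15.3 CPM, a ratio of 55.2 (25.1 to 151). Sub-cluster 5, led by Vim, Dock10 and S100a6, had 4 UMIs in 14 control cells and 140 in 123 ischemic cells, 10.03 and 22.8 CPM, a ratio of 2.27 (0.868 to 8.46). Sub-cluster 2, led by Sparc, Ang and Apoe, had 5 control and 89 ischemic UMIs, 0.2002 and 3.87 CPM. In the ischemic library the intervals of sub-clusters 5 (19.2 to 26.9 CPM), 1 and 2 (3.11 to 4.76) lay apart. Havcr1 was at 812, 723 and 105 CPM in the same 3 sub-clusters. Sub-cluster 3 had as much Osmr as sub-cluster 1 (15.3 CPM, 12.2 to 19.02) with 317 CPM of Havcr1, and sub-cluster 0 had less (6.31 CPM, 4.23 to 9.06) with 470.4 CPM, so the sub-clusters did not order alike by both genes.

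**Figure D4:**
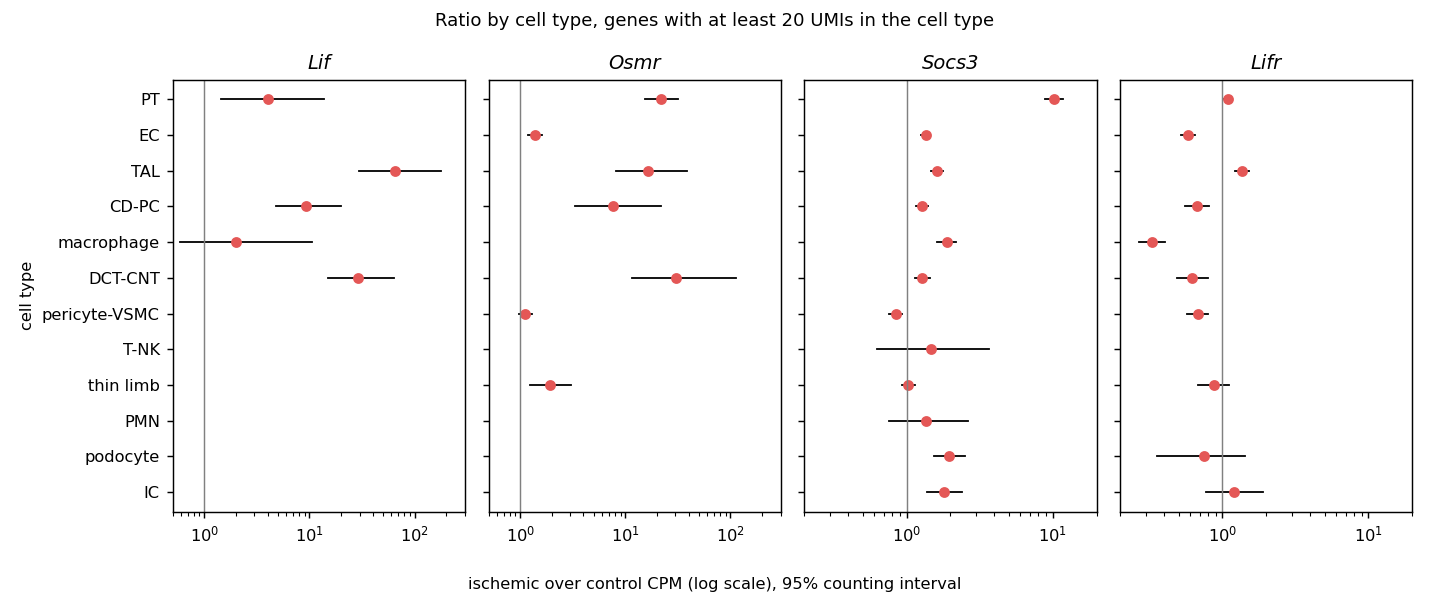
Ratio of ischemic to control CPM (log axis) with its 95% counting interval for Lif, Osmr, Socs3 and Lifr by cell type, 1 library per condition. Lif and Osmr have high ratios in TAL (65.4 and 16.3) and DCT-CNT (29.1 and 30.2), Socs3 has its highest in PT (10.2), and Lifr has its lowest in macrophages (0.329).

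Lifr encodes the chain with which gp130 binds LIF. Over all kept cells it had 4772 control and 4887 ischemic UMIs, 38.3 and 37.96 CPM, a ratio of 0.992 (0.953 to 1.03). That value held opposite differences by type. Macrophage-like cells had 193 control and 190 ischemic UMIs, 108 CPM (92.97 to 124) and 35.4 CPM (30.5 to 40.8), a ratio of 0.329 (0.267 to 0.403). EC-like cells had 770 control and 594 ischemic UMIs, 155 and 89.5 CPM, a ratio of 0.579 (0.519 to 0.645). The ratio was 0.623 (0.486 to 0.794) in DCT-CNT-like, 0.670 (0.554 to 0.811) in CD-PC-like and 0.676 (0.575 to 0.795) in pericyte-VSMC-like cells. Over the alternatives it ran from 0.405 to 1.03 in DCT-CNT-like cells. TAL-like cells lay on the other side of 1, with 572 control and 950 ischemic UMIs, 55.4 and 75.5 CPM, a ratio of 1.36 (1.23 to 1.51). PT-like cells were at 28.5 and 31.1 CPM, a ratio of 1.09 (1.02 to 1.16). In the control, the whole pericyte-VSMC-like cluster (155 to 193 CPM) and EC (144 to 166) had the highest levels, with overlapping intervals, and macrophages came next, while in the ischemic library pericyte-VSMC (104 to 132), EC (82.5 to 97.00) and TAL (70.8 to 80.5) led with intervals apart. The cells that kept the pericyte-VSMC name were lower, at 96.2 CPM (74.2 to 123) and 66.8 CPM (52.9 to 83.2), below EC in the control and overlapping both EC and TAL in the ischemic library. EC-like cells had the highest ischemic level under 4 of the alternatives.

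Of the 5 sub-clusters of macrophage-like cells, 4 had a Lifr ratio whose interval lay below 1. Resident macrophage-like cells had 136 control and 72 ischemic UMIs, 137 and 43.03 CPM, a ratio of 0.313 (0.232 to 0.420). Dendritic cell-like cells had 24 control and 13 ischemic UMIs, 70.1 and 23.1 CPM, a ratio of 0.329 (0.154 to 0.673). Monocyte-like sub-cluster 1 had 5 UMIs in 4 control cells and 30 in 160 ischemic cells, a ratio of 0.0874 (0.0336 to 0.289). Unnamed sub-cluster 2, which had the tubular genes Slc5a12 and Slc12a1 among its leading genes, had a ratio of 0.520 (0.271 to 0.990). Monocyte-like sub-cluster 3 was at 53.8 and 58.1 CPM from 5 control and 55 ischemic UMIs, with overlapping intervals. Among EC-like cells the largest sub-cluster, 0, was at 121 and 57.6 CPM, a ratio of 0.478 (0.383 to 0.595), and sub-cluster 2 at 173 and 102 CPM, a ratio of 0.589 (0.474 to 0.730). EC-like sub-cluster 4, led by Lyz2, Hbb-bs, S100a9 and Hba-a2, had the highest level, 483 and 406 CPM, with overlapping intervals. These myeloid and hemoglobin genes do not name its cells, which were EC-like in the main clustering. Of macrophage-like cells, 43.2% in the control and 21.4% in the ischemic library held a Lifr UMI (9.54% and 3.15% thinned), so these cells could not serve as background for Lifr.

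Il6ra encodes the chain that binds IL-6. It had 370 control and 647 ischemic UMIs, 2.97 and 5.03 CPM, a ratio of 1.69 (1.49 to 1.93). In each of the types with the most Il6ra, the intervals of the control and ischemic levels overlapped. Podocyte-like cells had 163 UMIs in 92 control cells and 60 in 65 ischemic cells, 172 and 180.4 CPM, a ratio of 1.05 (0.767 to 1.42). PMN-like cells had 11 control and 92 ischemic UMIs, 90.4 and 109 CPM, a ratio of 1.21 (0.645 to 2.50). Macrophage-like cells had 98 control and 325 ischemic UMIs, 54.6 and 60.5 CPM, a ratio of 1.11 (0.880 to 1.40). In the ischemic library podocyte (138 to 232 CPM), PMN (88.1 to 134) and macrophage (54.1 to 67.4) intervals lay apart, and in the control the wide PMN interval (45.1 to 162) overlapped both others. Macrophage-like cells held 26.5% of control and 50.2% of ischemic Il6ra UMIs, and podocyte-like cells 44.05% and 9.27%.

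PT-like cells had 17 control and 52 ischemic UMIs, 0.239 and 0.778 CPM, a ratio of 3.25 (1.85 to 5.99). A UMI was found in 1.76% of ischemic PT-like cells and in 2.21% of ischemic TAL-like cells, the background for Il6ra, at median depths of 20313 and 24067 UMIs, so the share over all PT-like cells was not above background. The UMIs were uneven among PT-like cells. Sub-cluster 1 had 2 control and 24 ischemic UMIs, a ratio of 11.5 (2.87 to 101), in 0.280% and 3.91% of its cells. Sub-cluster 5 had 2 control and 14 ischemic UMIs, and 9.76% of its ischemic cells held one. The median depth of these ischemic cells was 43976 and 50029 UMIs, above that of the TAL-like cells. Among myeloid sub-clusters of the ischemic library, monocyte-like sub-cluster 3 had 134 CPM (112 to 159.5), above monocyte-like sub-cluster 1 at 61.3 CPM (49.8 to 74.7) and resident macrophage-like cells at 40.04 CPM (31.03 to 50.9), which overlapped each other.

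Il6st, the shared chain, was found in every named type. It had 6204 control and 7635 ischemic UMIs, 49.8 and 59.3 CPM, a ratio of 1.19 (1.15 to 1.23). The pericyte-VSMC-like cluster as a whole had the highest level, 191 and 232 CPM, a ratio of 1.22 (1.06 to 1.39). EC-like cells had 108 and 134 CPM, a ratio of 1.24 (1.11 to 1.38), and thin limb-like cells 99.2 and 111 CPM, a ratio of 1.12 (0.931 to 1.34). Podocyte-like cells had 86 control and 55 ischemic UMIs, 90.7 and 165 CPM, a ratio of 1.82 (1.27 to 2.59). The ratio was 1.76 (1.53 to 2.03) in DCT-CNT-like, 1.42 (1.27 to 1.60) in TAL-like, 1.09 (1.03 to 1.14) in PT-like and 0.839 (0.748 to 0.942) in CD-PC-like cells, and none reached 2-fold. PMN-like cells had the lowest level, 16.4 and 15.4 CPM from 2 control and 13 ischemic UMIs, followed by macrophage-like cells at 29.6 and 30.7 CPM. In the cells that kept the pericyte-VSMC name Il6st was at 85.8 and 155 CPM, a ratio of 1.80 (1.33 to 2.47), with intervals (65.2 to 111 and 133 to 179) that overlapped those of EC-like cells (98.9 to 117 and 125 to 143).

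**Figure D5:**
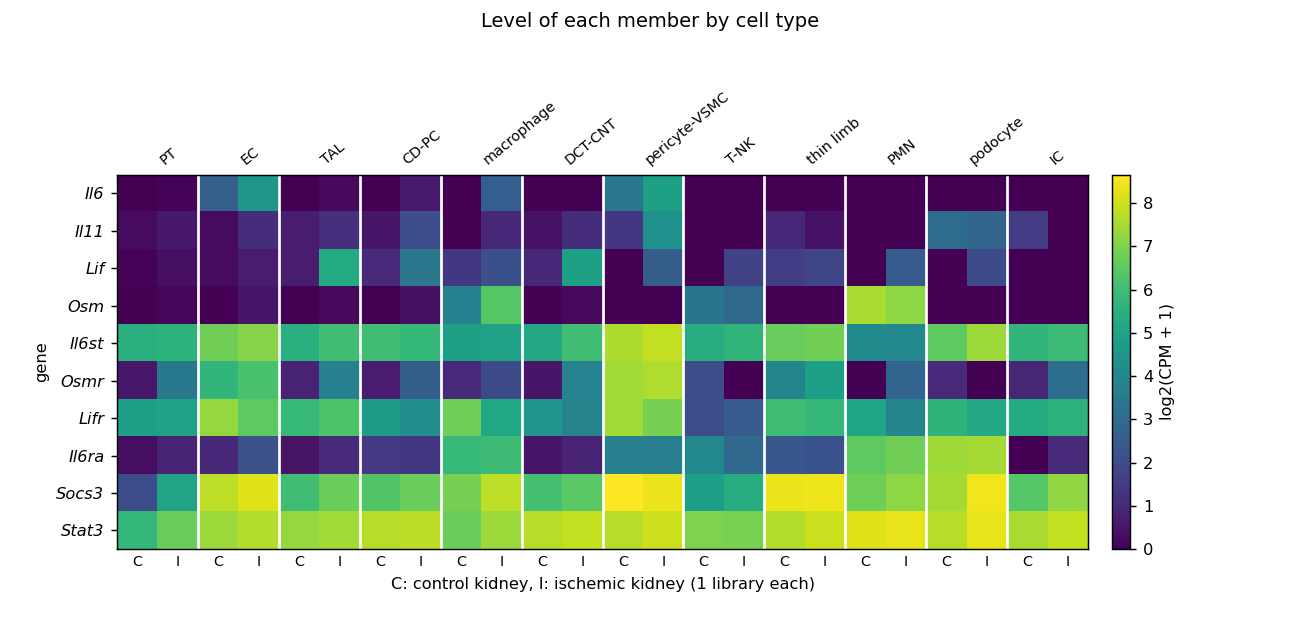
Level of each of the 10 members as log2(CPM + 1) (colour) by cell type in the control (C) and ischemic (I) kidney, 1 library each. Along its row, Lif is highest in ischemic TAL and DCT-CNT (37.99 and 28.99 CPM), Osm in PMN (189 and 144 CPM) and Il6ra in podocytes (172 and 180.4 CPM).

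Stat3 encodes the transcription factor that gp130 activates by phosphorylation, a step RNA does not show. It had 12205 control and 18234 ischemic UMIs, 97.9 and 142 CPM, a ratio of 1.45 (1.41 to 1.48). PT-like cells had 3684 control and 6778 ischemic UMIs, 51.9 CPM (50.2 to 53.6) and 101 CPM (99.01 to 104), a ratio of 1.95 (1.88 to 2.04). Macrophage-like cells were at 105 and 167 CPM, a ratio of 1.60 (1.36 to 1.88), and podocyte-like cells at 212 and 334 CPM, a ratio of 1.57 (1.24 to 1.995). Ratios in the other 9 types lay between 0.949 (0.616 to 1.47) in T-NK-like and 1.23 (1.09 to 1.40) in thin limb-like cells, and no type was past 2-fold. PT-like cells had the lowest level in both libraries, and in the ischemic one their interval overlapped that of T-NK-like cells (88.7 to 156 CPM).

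Socs3, the feedback inhibitor, had 5496 control and 11329 ischemic UMIs, 44.1 and 88.00 CPM, a ratio of 1.996 (1.93 to 2.06), just under 2-fold. The ratio was highest in PT-like cells. These had 225 control and 2171 ischemic UMIs, 3.17 CPM (2.77 to 3.61) and 32.5 CPM (31.1 to 33.9), a ratio of 10.2 (8.93 to 11.8), and averaging CPM computed cell by cell gave 5.20. Of the PT-like cells, 201 of 3696 in the control (5.44%) and 797 of 2615 in the ischemic library (30.5%) held a UMI, and after thinning 0.664% and 3.10% did. No type that lacks Socs3 was set as background. PT-like cells nevertheless had the lowest level of all 12 types in both libraries, with an overlap with T-NK-like cells (24.4 to 64.9 CPM) in the ischemic one.

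In the other types the levels were higher and the ratios smaller. Podocyte-like cells had 170 control and 117 ischemic UMIs, 179 and 352 CPM, a ratio of 1.96 (1.54 to 2.50). Macrophage-like cells were at 118 and 222 CPM, a ratio of 1.88 (1.62 to 2.19). The ratio was 1.81 (1.38 to 2.39) in IC-like, 1.62 (1.48 to 1.79) in TAL-like, 1.36 (0.764 to 2.62) in PMN-like, 1.35 (1.25 to 1.45) in EC-like, 1.28 (1.17 to 1.41) in CD-PC-like and 1.28 (1.15 to 1.44) in DCT-CNT-like cells. Over the alternatives it ran from 0.873 to 1.51 in CD-PC-like cells. Thin limb-like cells were high in both libraries, 335 CPM (309.8 to 362) and 344 CPM (323 to 367). The highest ischemic levels, in podocyte (291 to 422 CPM), thin limb and pericyte-VSMC (316 to 363), overlapped, and EC (286 to 312) overlapped podocyte only.

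Pericyte-VSMC-like cells were at 403 and 339 CPM, a ratio of 0.841 (0.761 to 0.929), and this value depended on which cells were counted. Of their 757 control UMIs, 383 were in 11 EC-like cells of sub-cluster 5 and 260 in unnamed sub-cluster 3, which had epithelial genes among its leading genes. In the sub-clusters that kept the pericyte-VSMC name, Socs3 had 42 control and 185 ischemic UMIs, 62.1 and 156 CPM, a ratio of 2.52 (1.79 to 3.61), on the other side of 1. Osmr in the same cells was at 59.2 and 92.2 CPM, a ratio of 1.56 (1.07 to 2.30). Fibroblast-like cells had 53 control and 38 ischemic UMIs, 253 and 105 CPM, a ratio of 0.414 (0.266 to 0.640), and for Osmr 26 control and 121 ischemic UMIs, 124 and 333 CPM, a ratio of 2.69 (1.75 to 4.28).

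Socs3 was higher in most sub-clusters of PT-like and EC-like cells of the ischemic library. Among the 7 PT-like sub-clusters with at least 20 UMIs, the ratio ran from 3.68 (2.39 to 5.79) in sub-cluster 0 to 13.2 (10.4 to 17.1) in sub-cluster 2. Sub-cluster 5 of the PT-like cells had 60.7 CPM (54.7 to 67.2) in the ischemic library, with a UMI in 69.9% of its 123 cells. Sub-cluster 0 of the EC-like cells was at 70.6 and 184 CPM, a ratio of 2.60 (2.12 to 3.22), and sub-cluster 3 at 125 and 292 CPM, a ratio of 2.33 (1.75 to 3.13). EC-like sub-cluster 4 was high in both libraries, 883 and 849.5 CPM, a ratio of 0.962 (0.836 to 1.11). Among ischemic macrophage-like cells, monocyte-like sub-cluster 3 had 466 CPM (423 to 511), above resident macrophage-like cells at 203 CPM (182 to 225) and monocyte-like sub-cluster 1 at 128 CPM (111 to 147).

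Socs3 is also an immediate early gene, and dissociation of tissue is known to induce such genes. Of 14 listed immediate early genes, none was past 2-fold over all kept cells, against 8.75% of genes higher and 4.13% lower, and their median log2 ratio was 0.40 against 0.13 for all genes. As plain ratios of ischemic to control CPM, the highest were Atf3 at 1.71 and Egr1 at 1.68, both transcription factors, and the lowest the heat shock genes Hspa1a at 1.03 and Hspa1b at 1.12. In PT-like cells, where the Socs3 ratio was highest, 9 of 14 were at least 2-fold higher, against 6.94% of genes, with a median log2 ratio of 1.10 against 0.12 for all genes. In TAL-like cells 1 of 14 was, against 7.89%, and none was in EC-like (1.91%), CD-PC-like (5.82%), DCT-CNT-like (6.38%) or pericyte-VSMC-like cells (2.15%). In the unnamed cluster led by TAL genes 4 of 14 were higher (6.64%), and in PMN-like cells 4 of 12 tested (25.75%). Macrophage-like cells had 1 of 14 higher (5.66%) and 2 lower (4.83%), and IC-like cells 0 higher (5.73%) and 3 lower (3.95%). The part of dissociation in the Socs3 values was not tested.

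The other genes of the pathway were counted in fixed lists, which were also chosen with earlier results of these data known. Their counts are set against the 8.75% of all tested genes at least 2-fold higher and the 4.13% at least 2-fold lower over all kept cells. Of 8 further family ligands 6 were tested, and 3 were at least 2-fold higher and 0 lower, with a median log2 ratio of 0.56. Clcf1, which encodes a ligand of the ciliary neurotrophic factor receptor, had 180 control and 906 ischemic UMIs, a ratio of 4.88 (4.15 to 5.75). Ebi3, a subunit of IL-27, had a ratio of 2.05 (1.58 to 2.67). The lowest were Il27 at 0.905 (0.780 to 1.05) and Ctf1, which encodes cardiotrophin 1, at 0.997 (0.891 to 1.12). Clcf1 was at 0.437 and 5.48 CPM in PT-like cells.

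Of 6 further receptors and receptor-shedding proteases, 0 were higher (8.75% of all genes) and 2 lower (4.13%), with a median log2 ratio of -0.08. Il31ra, which pairs with Osmr to bind IL-31, had 13060 control and 4656 ischemic UMIs, a ratio of 0.345 (0.334 to 0.357). Cntfr, which encodes the receptor of ciliary neurotrophic factor, had 413 control and 199 ischemic UMIs, a ratio of 0.467 (0.392 to 0.554). The highest were Il27ra at 1.85 (1.34 to 2.59) and the protease gene Adam10 at 1.42 (1.37 to 1.47). Il31ra was near one level in unlike types, at 115 and 36.5 CPM in PT-like, 83.8 and 35.4 CPM in EC-like and 94.5 and 37.8 CPM in TAL-like cells, and whether each type made this RNA was not tested.

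Among 10 further Jak and Stat genes, 1 was higher, a share near the 8.75% of all genes, and 0 lower, with a median log2 ratio of 0.39. The highest were Stat4, a factor of T and natural killer cells, at 2.25 (1.93 to 2.62), and Jak3, a kinase of lymphocyte receptors, at 1.74 (1.55 to 1.95), and the lowest Stat5b at 0.915 (0.869 to 0.964) and the kinase gene Tyk2 at 1.15 (1.04 to 1.27). Stat4 was at 400.3 and 486 CPM within T-NK-like cells, but these did not hold all of its UMIs in either library. Its levels in other types are not given, so the ratio over all cells is not placed in T-NK-like cells. Of 13 further feedback regulators, 1 was higher, again near the 8.75% of all genes, and 0 lower, with a median log2 ratio of 0.20. Socs2, which acts mainly on growth hormone signalling, had 2826 control and 6034 ischemic UMIs, a ratio of 2.07 (1.98 to 2.16), and in TAL-like cells it was at 29.6 and 134 CPM, a ratio of 4.51 (3.995 to 5.12). Next came Ptpn6, a phosphatase of blood cells, at 1.69 (1.57 to 1.81), and the lowest were Socs5 at 0.863 (0.812 to 0.915) and Pias1 at 0.953 (0.915 to 0.992). Scaled to the median ratio, no gene of the feedback list was past 2-fold.

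Of 21 listed STAT3 response genes 20 were tested, and 16 of these were at least 2-fold higher, against 8.75% of all genes, and 0 lower, against 4.13%, over all kept cells, with a median log2 ratio of 1.996. Timp1, an inhibitor of matrix proteases, had 142 control and 4188 ischemic UMIs, a ratio of 28.6 (24.2 to 34.01). Saa3, an acute phase gene, had 51 control and 1299 ischemic UMIs, a ratio of 24.7 (18.6 to 33.3). The lowest were Ccnd1, which encodes cyclin D1, at 0.646 (0.633 to 0.659) and the survival gene Bcl2l1 at 1.54 (1.49 to 1.58). Other signals induce many of these genes too, so the list is no measure of STAT3 activity.

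By cell type, 12 of 17 tested STAT3 response genes were at least 2-fold higher in PT-like cells, against 6.94% of all genes there, 12 of 17 in TAL-like (7.89%), 11 of 16 in DCT-CNT-like (6.38%) and 10 of 16 in CD-PC-like cells (5.82%). The counts were 9 of 18 in macrophage-like (5.66%), 8 of 17 in EC-like (1.91%) and 5 of 16 in pericyte-VSMC-like cells (2.15%). Ccnd1 lay on the other side of 1 in TAL-like cells, at 486 and 51.98 CPM, a ratio of 0.107 (0.0985 to 0.116). Timp1 in TAL-like cells was at 0.872 and 100.3 CPM and in pericyte-VSMC-like cells at 34.1 and 386 CPM. Saa3 in macrophage-like cells was at 15.6 and 219.9 CPM, and these held 90.99% of its ischemic UMIs.

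For the 8 members with at least 500 UMIs, the genes most alike in level were found by Pearson's r of log2(CPM + 1) among 12478 genes, over 22 groups of at least 50 cells from 12 cell types and 2 libraries. These groups share libraries and differ in depth, so r is a description only. Il6 and Il11 had too few UMIs. For Lif they were Il1f6 (0.847), Lcn2 (0.830) and Clu (0.801). Il1f6, an IL-1 family cytokine gene, was at 0.0969 and 32.8 CPM in TAL-like and 6.09 and 256 CPM in DCT-CNT-like cells. Lcn2, the gene of the injury marker NGAL, was at 419 and 5267 CPM in TAL-like, 60.01 and 2890.0 CPM in DCT-CNT-like and 830.4 and 5357 CPM in CD-PC-like cells. Like Lif, both were higher in these types of the ischemic library. These values were among those by which the genes were chosen, so that likeness is no result.

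For Osm the genes were Itgam (0.970), Lilrb4a (0.969) and Syk (0.969), and Itgam, the integrin CD11b of myeloid cells, was at 117 and 296 CPM in macrophage-like and 247 and 425 CPM in PMN-like cells. For Il6ra they included Metrnl (0.945) and Efhd2 (0.906). For Osmr they were Nav3 (0.912), Col12a1 (0.899) and Mtss2 (0.895), with Nav3 at 0.183 and 2.54 CPM in PT-like cells. For Il6st they were Hmg20b (0.925), Sspn (0.916) and Gnas (0.913), and for Lifr Snx21 (0.818), Cep112 (0.810) and Adcy9 (0.809). For Socs3 they were Fos (0.945), Egr1 (0.923) and Mbnl2 (0.916), the first a pair of the listed immediate early genes. For Stat3 they were Prkaa1 (0.858), Btg2 (0.837) and Egr1 (0.822), with Btg2 at 17.99 and 49.7 CPM in PT-like cells.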

How the data were processed

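Kidney cells of 1 control and 1 ischemic mouse kidney had been dissociated and sequenced as droplet libraries. The authors deposited filtered matrices of UMI counts per gene and cell, made with Cell Ranger 7.0.0 on mm10 per the submitters' processing notes. These counts are not normalized. The members and gene lists were chosen with earlier results of these data known.

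Barcodes were dropped under 200 genes, outside 500 to 150000 UMIs or above 55% mitochondrial UMIs (Python 3.11.15, scipy 1.17.1, numpy 2.4.6, pandas 2.3.3). Libraries were integrated in Seurat 5.3.0 (R 4.3.3), scaled to 10000 UMIs per cell, on 30 principal components of 2000 variable genes from which 37 member and list genes were removed, at resolution 0.3 and seed 42. Clusters were named by fixed markers, with at least 3 markers detected, a median of at least 1000 UMIs and a log2 lead of 0.5 over the next list, and these limits were set after the data were seen. Sub-clusters of PT-like and EC-like cells, and values for named sub-clusters only, were added after seeing the data. Scrublet (scanpy 1.11.5) called 0 doublets in each library and so did not work, and an alternative removed the top 8% of cells by score.

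UMIs were summed per library and cell type and scaled to CPM, with exact Poisson intervals. Ratios have exact conditional binomial intervals and were given from 20 UMIs, and shares have Clopper-Pearson intervals, all for counting error only. A gene was tested from 50 UMIs, which means that its ratio was set against 2-fold. The limit for a count of 0 is 3 counts. Genes most like a member are the 3 with the highest r, and from each list the 2 highest and the 2 lowest ratios are named, while Ebi3 and the genes given as examples by cell type were named after their values were seen. A further gene of the ligand list and a gene like Il6ra in level are not reported here. Alternatives changed the filters, clustering, typing, scaling, gene minimum and depth. The code was tested on simulated data. Plots were drawn with matplotlib 3.10.9.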

Additional observations from a re-analysis of the deposited data

Results flagged for a closer look

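Some members differed in opposite directions between cell types of the same 2 libraries. Il6st had a ratio of ischemic to control CPM of 0.839 in CD-PC-like cells and 1.82 in podocyte-like cells. Lifr had a ratio of 0.329 in macrophage-like cells and 1.36 in TAL-like cells. Socs3 had a ratio of 0.841 in pericyte-VSMC-like cells and 10.2 in PT-like cells, and the former lay above 1 in some of the alternatives. The types of a pair were picked as the highest and lowest ratios whose counting intervals lay wholly above and wholly below 1. That the intervals lay on opposite sides of 1 was thus set by the choice and is no result. With 1 library per condition the differences between types were not tested.

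Barcodes left out by the filters, 2524 in the control and 2141 in the ischemic library, also held members. Lif was at 0.167 CPM in the left-out control barcodes and 2.74 CPM in the ischemic ones, from 3 and 39 UMIs. Osmr was at 0.666 and 5.27 CPM, from 12 and 75 UMIs. Socs3 was at 7.50 and 28.1 CPM, from 135 and 400 UMIs. Lif, Osmr and Socs3 were named because the lower limit of their ratio there was above 2, with at least 20 ischemic UMIs. Their higher ischemic level thus follows from that choice. Il6 had 0 UMIs in both libraries and Osm 0 and 1. The ratio was 1.69 (0.286 to 11.5) for Il11, 8.23 (1.86 to 75.1) for Il6ra and 1.56 (1.39 to 1.76) for Stat3. It was 1.18 (1.004 to 1.38) for Il6st and 1.09 (0.865 to 1.36) for Lifr. The differences were not tested.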

How the results depend on the processing

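Each ratio of ischemic to control CPM was recomputed under the alternatives. A value was left out where no control UMI remained, as for Lif in TAL-like cells without the 5 cells that held the most. Of 207 values for the 20 ratios past 2-fold within a cell type, 206 lay on the same side of 1 and 193 were still past 2-fold. The exception was Il11 in TAL-like cells, 0.779 with cells typed by their marker UMIs in place of 2.19. Outside that set, Socs3 in pericyte-VSMC-like cells ran from 0.805 to 2.52 and Osm in PMN-like cells from 0.549 to 1.91, so neither has a settled direction, and Il6ra in podocyte-like cells ran from 0.276 to 1.38. Lifr in DCT-CNT-like cells, from 0.405 to 1.03, and Socs3 in CD-PC-like cells, from 0.873 to 1.51, also lay on both sides of 1. So did other ratios under 2-fold that are not all listed here. Examples are Socs3 (0.913 to 2.49) and Il6ra (0.722 to 3.01) in PMN-like cells and Stat3 in IC-like cells (0.881 to 1.48). Unless a value below shows it, the cause was not tested. The share of all genes past 2-fold was not computed under the alternatives. Counts of members or list genes past 2-fold below thus show only how the count depends on the setting.

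At most 25% mitochondrial UMIs per cell gave, over all kept cells, 9.85 for Lif, 8.20 for Osm, 3.76 for Il6, 1.90 for Osmr, 1.19 for Il6ra, 1.49 for Socs3, 1.32 for Stat3, 1.04 for Il6st and 0.813 for Lifr. It also gave 1 member higher by 2-fold in pericyte-VSMC-like cells (2 as reported), 0 genes of the Jak and Stat list and 0 of the feedback list (1 each as reported), the same type with the highest level for 6 of 10 members, and ischemic shares of 63.5% for Il6 in EC-like, 42.6% for Lif in TAL-like and 29.7% for Osmr in PT-like cells. Without the 5 cells of each library that held the most UMIs of a gene, the ratios were 38.5 for Lif, 17.5 for Osm, 8.07 for Il6, 3.40 for Osmr and 1.95 for Il6ra, and Socs3 was higher by 2-fold in 3 cell types (1 as reported). CPM computed in every cell and then averaged gave 9.77 for Il6, 2.55 for Osmr, 2.17 for Socs3, 1.34 for Stat3 and 0.907 for Lifr, 2 types for Socs3 and 0 genes of the feedback list. Scaling to the median ratio gave 2.79 for Osmr, 1.82 for Socs3, 1.32 for Stat3, 1.09 for Il6st and 0.905 for Lifr, and scaling to UMIs of genes outside the mitochondrion 1.87 for Socs3, 1.36 for Stat3, 1.12 for Il6st and 0.929 for Lifr, with 0 genes of the feedback list under both. At least 1000 UMIs per cell gave 2 types for Socs3, 1 member in pericyte-VSMC-like cells and 55.02% of Lif in TAL-like cells, and resolution 0.6 gave 1 member in pericyte-VSMC-like cells.

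Cells typed by marker UMIs gave 2 types for Socs3, the same highest type for 4 of 10 members, 1 member in DCT-CNT-like and 0 in pericyte-VSMC-like cells, and shares of 50.4% for Il6 in EC-like, 3.08% for Lif in DCT-CNT-like (23.7% as reported), 29.8% for Osmr in PT-like and 14.6% for Socs3 in PT-like cells. Without integration, DCT-CNT-like cells held 29.3% of Lif and PT-like cells 18.4% of Socs3, and no CD-PC or IC cluster was named. A minimum of 20 UMIs per gene gave 2 members higher in EC-like, 5 in PT-like and 3 in macrophage-like cells. One of 200 UMIs left 1 type for Osmr (4 as reported) and 1 member each in DCT-CNT-like and TAL-like cells. It left 0 in EC-like and pericyte-VSMC-like cells, since fewer members are tested. At both minima the share of all genes past 2-fold was not computed, so these counts cannot be set against it. Sub-clustering at resolution 0.2 put 100% of the stromal Il11 in fibroblast-like cells (97.9% as reported). Thinning to 1000 UMIs gave control and ischemic shares of positive cells of 0 and 3.06% for Lif in TAL-like, 0 and 3.43% for Lif in DCT-CNT-like, 0.353% and 6.29% for Osm in macrophage-like, 0.228% and 1.73% for Il6 in EC-like, 0.0554% and 1.16% for Osmr in PT-like, 0 and 1.02% for Osmr in TAL-like, and 0.664% and 3.10% for Socs3 in PT-like cells.

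No paired analysis was possible because each group holds 1 library, and for the same reason no replicate could be left out. Ratios with under 10 control UMIs, such as Lif in TAL-like and Osmr in DCT-CNT-like cells, have wide intervals, and a gene at 0 in a type of few cells, such as the 19 control PMN-like cells, was not detectable at this depth.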
